A study of Parasteatoda tepidariorum with 10 samples.

Results

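Chromatin accessibility in stage-3 embryos of the house spider *Parasteatoda tepidariorum* was compared between *fuchi* pRNAi and the wild type. The comparison used 4 of the 10 ATAC-seq libraries of the series, and it asked which accessible regions were lost, gained or altered when *fuchi* was knocked down. Both wild-type libraries came from untreated embryos of the Osaka isolate at 18 h after egg laying (AEL). Both *fuchi* pRNAi libraries came from embryos of the same isolate and age whose mothers had been injected 3 times with about 2 µl of *fuchi* double-stranded RNA (dsRNA) at 2 µg/µl, and the eggs had been laid 13 to 24 days after the first injection. Nuclei of 40 whole embryos were pooled for each library, and the number of mothers behind a pool was not given in the sources used here. Where another group is mentioned, the wild-type embryos of stage 1 (9 h AEL) and stage 2 (12 h AEL) were collected 200 to a library, and the *Pt-hh* pRNAi embryos of stage 3 came from mothers that had received 4 injections against the spider *hedgehog* gene.

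In ATAC-seq the Tn5 transposase cuts DNA where nucleosomes leave it exposed, so that a peak of insertions marks an accessible promoter, enhancer or other open element. *fuchi* encodes a GATA-like zinc finger protein found in spiders. GATA factors bind short GATA-containing DNA motifs, and some members of the family in other animals can open closed chromatin. Stage 3 is the time at which the germ disc begins to form, from which the body of the spider arises. A library pooled all cells of whole embryos, so that fewer cells with an open site cannot be told apart from less opening in each cell.

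The primers below are given by the study for *fuchi*, in a list that serves both RNAi and in situ hybridization. The study also made *fuchi* dsRNAs from non-overlapping parts of the transcript. Its methods do not say which dsRNA was injected for these libraries. The small letters are the added tail with an EcoRI site, and the capitals are the part that matches the *fuchi* transcript (aug3.g26874, LOC107439682).
fuchi forward primer: ggaattcGACATGTTCTCACCTATTTCCG
fuchi reverse primer: ggaattcTGTAATTGCCTTAAGTCCGATG
The *fuchi* transcript itself was not measured by these libraries, so the depth of the knockdown could not be read from them. The lists held no gene names either, and the label of whole embryo could not be set against marker genes.

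The deposited lists held 19812 and 12494 peaks in wild-type replicates 1 and 2, and 10616 and 13677 peaks in *fuchi* pRNAi replicates 1 and 2. Read totals were not analysed here, so the depth is unknown, and a list grows with depth and library quality as well as with accessibility. Each list was therefore shortened to the 10616 peaks with the highest signal, the length of the shortest list. The weakest peak kept had a signal of 358.6 in wild-type replicate 1, 229.6 in wild-type replicate 2, 200 in *fuchi* pRNAi replicate 1 and 246.2 in *fuchi* pRNAi replicate 2. Overlapping peaks of the 4 shortened lists were merged into 18475 regions, against 38227 regions for all 10 libraries of the series. Positions are given on Ptep_2.0 scaffolds. The strength of a region in a library is given as its signal percentile, the rank of its strongest peak within that library's shortened list, with 100 as the top.

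The groups differed in more than the knockdown. The wild-type mothers were not injected, so *fuchi* loss and injection cannot be told apart from these 4 libraries alone. The source label names line 39 for wild-type replicate 1 and line 40 for the other 3 libraries. Of the libraries used for reference, *Pt-hh* pRNAi replicates 1 and 2 are from lines 40 and 39, the stage-2 replicates from lines 39 and 40, and stage-1 replicate 1 from line 39, while the label of stage-1 replicate 2 names no line. A bracketed entry in the same label begins with 8 and 11 in the wild-type replicates and with 1 in both *fuchi* pRNAi replicates. The p-values given here measure the spread between libraries, since nothing in the labels says whether the replicates came from separate mothers. With 2 libraries against 2, an exact permutation test of a single region cannot give a p below 0.33.

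Most strong regions were open in both groups. Of the 18475 regions, 4680 (25.3%) had a peak in all 4 libraries, 6484 (35.1%) in 2 or 3 libraries and 7311 (39.6%) in a single library. A peak in both wild-type libraries was found in 6753 regions, and one in both *fuchi* pRNAi libraries in 6913. Of the 859 regions with a mean wild-type percentile above 90, 827 (96.3%) also had peaks in both replicates of *fuchi* pRNAi, with a median *fuchi* pRNAi percentile of 94.6. Among the 1281 regions from 75 to 90 the share was 87.7%, and it fell to 73.2% of 2140 regions from 50 to 75, to 51.1% of 1854 regions from 25 to 50 and to 34.6% of 619 regions below 25. In the opposite direction, 98.0% of the 867 strongest *fuchi* pRNAi regions and 26.0% of the 709 weakest had a peak in both wild-type libraries.

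The background for every loss was the disagreement between replicates, and it was large. Of the regions of wild-type replicate 1, 35.9% had no peak in wild-type replicate 2, and the 4 replicate comparisons (each library against its own replicate) ranged from 33.8% to 35.9%. The 8 comparisons of a library with a library of the other group ranged from 32.6% to 40.0%, so that the ranges overlapped. The overlap held at each level of signal. Below a percentile of 25, replicates lacked 59.7% to 63.8% of each other's regions and libraries of different groups 59.9% to 67.7%. Above a percentile of 90, replicates lacked 1.42% to 4.00% and libraries of different groups 1.52% to 7.13%. The highest value of that last range was found for wild-type replicate 2 against *fuchi* pRNAi replicate 1, whose list was the shortest as deposited. The same comparison with *fuchi* pRNAi replicate 2 in its place gave 2.19%.

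**Figure D1:**
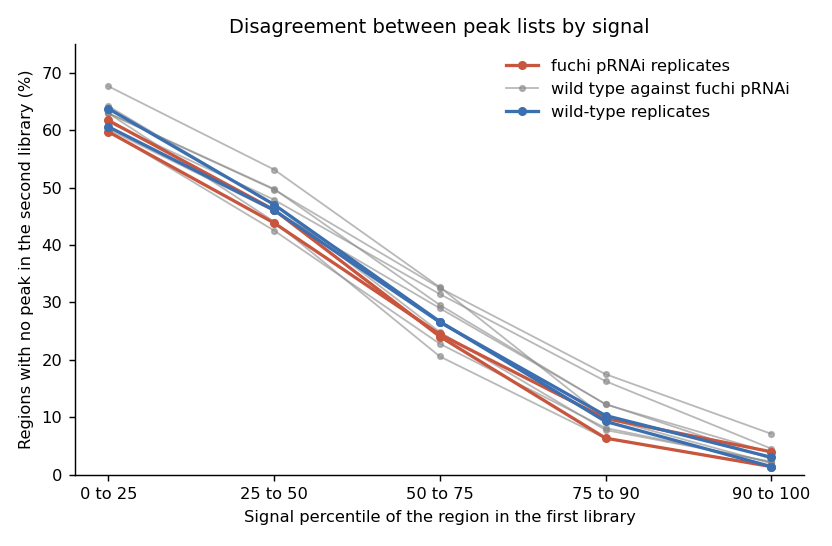
The share of regions of a first library that had no peak in a second library (y axis, percent) is plotted against the signal percentile of the region in the first library (x axis, 5 bands). Blue lines are the wild-type replicates against each other, red lines the *fuchi* pRNAi replicates, and grey lines the 8 comparisons between the groups. All lines fall from between 59.7% and 67.7% in the weakest band to between 1.42% and 7.13% in the strongest. The replicate lines overlap the grey ones, and their median is lower in every band.

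Peaks lost after *fuchi* pRNAi were counted where both wild-type libraries had a peak and neither *fuchi* pRNAi library did. This was the case for 734 of 6753 wild-type regions (10.9%). The opposite pattern, with peaks in both replicates of *fuchi* pRNAi and none in the wild type, was found in 735 of 6913 regions (10.6%), so that losses and gains were equal in number at this list length. Equal lengths force lists to gain about as many peaks as they lose, and a general gain or loss cannot be seen from them. The 4 patterns that united a library of each group were of the same order. Peaks in wild-type replicate 1 and *fuchi* pRNAi replicate 1 only were found in 682 regions, and in wild-type replicate 2 and *fuchi* pRNAi replicate 2 only in 649. Wild-type replicate 1 with *fuchi* pRNAi replicate 2 gave 479 regions, and wild-type replicate 2 with *fuchi* pRNAi replicate 1 gave 368. Among strong regions the patterns were spread more widely. A mean percentile of 75 or more was reached by 32 regions of the wild-type pair, by 14 of the *fuchi* pRNAi pair, and by 7, 7, 10 and 26 regions of the 4 mixed pairs. The 26 belonged to wild-type replicate 2 with *fuchi* pRNAi replicate 2.

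The full lists gave unequal counts. Of the 734 lost regions, 574 had no peak in either *fuchi* pRNAi list as deposited, which is 8.50% of the wild-type regions. The other 160 had a weaker peak in *fuchi* pRNAi replicate 2, and none had one in *fuchi* pRNAi replicate 1, whose list was not shortened. Of the 735 gained regions, 270 had no peak in either full wild-type list, which is 3.91% of the *fuchi* pRNAi regions. A weaker peak was present in wild-type replicate 1 for 417 of the 735 and in wild-type replicate 2 for 122. The full wild-type list of replicate 1 was the longest of the 4, and its part in this imbalance was not tested. With all deposited peaks the counts were 1407 lost regions (14.7%) and 400 gained regions (5.20%).

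Lost and gained regions were then looked up in the other libraries of the series. These libraries did not enter the choice of the regions, and the values are given as descriptions. The *Pt-hh* pRNAi libraries, likewise shortened to 10616 peaks, both had a peak in 334 of the 734 lost regions (45.5%) and in 141 of the 735 gained regions (19.2%). Taken singly, the shortened lists covered 60.6% and 61.2% of the lost regions and 35.4% and 40.8% of the gained ones. The full *Pt-hh* pRNAi lists covered 89.6% and 83.4% of the lost regions and 84.5% and 81.9% of the gained ones. Most gained regions thus had a *Pt-hh* pRNAi peak too, but so did most regions of the comparison. The full *Pt-hh* pRNAi lists covered 14445 and 13862 of all 18475 regions, lower shares than in the lost or gained regions. The order of lost and gained regions was narrow in the full lists. Of all regions of both wild-type libraries, 80.7% had a peak in both shortened *Pt-hh* pRNAi lists. Over all 18475 regions the share was 40.6%. Pairs of libraries from different groups covered much of the same range. The share was 40.1% for regions of wild-type replicate 1 with *fuchi* pRNAi replicate 2 only, 24.3% for wild-type replicate 1 with *fuchi* pRNAi replicate 1, 21.3% for wild-type replicate 2 with *fuchi* pRNAi replicate 2 and 15.2% for wild-type replicate 2 with *fuchi* pRNAi replicate 1. The *Pt-hh* pRNAi mothers were injected too, but 4 times rather than 3, and the bracketed entries of both libraries begin with 1. Their replicate 2 shares line 39 with wild-type replicate 1. The parts of injection and line in these shares were not tested. At stage 2 the order of lost and gained regions was reversed. Peaks of the wild-type stage-2 replicates fell in 21.7% and 12.9% of the lost regions and in 27.8% and 38.9% of the gained regions. At stage 1 the shares were 18.5% and 9.81% of the lost regions and 34.0% and 16.6% of the gained ones. Over all regions they were 33.8% and 31.9% at stage 2 and 31.8% and 18.6% at stage 1, so that the gained regions lay on both sides of those values and the lost regions below them. The order of lost below gained held in each of these 4 libraries, although the stage-1 replicates overlapped between the sets. It also held among the regions with a mean percentile of 50 or more, where stage-2 peaks covered 24.7% and 15.8% of 190 lost regions and 43.6% and 51.4% of 140 gained regions. The full lists kept the order over all lost and gained regions. It was narrow in stage-2 replicate 1 (61.0% against 63.7%) and stage-1 replicate 2 (49.2% against 53.9%). In stage-2 replicate 2 the full-list shares were 27.9% and 55.8%, and in stage-1 replicate 1 they were 30.8% and 49.0%. Over all 18475 regions the full lists covered 63.3% and 46.3% at stage 2 and 45.7% and 55.8% at stage 1.

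**Figure D2:**
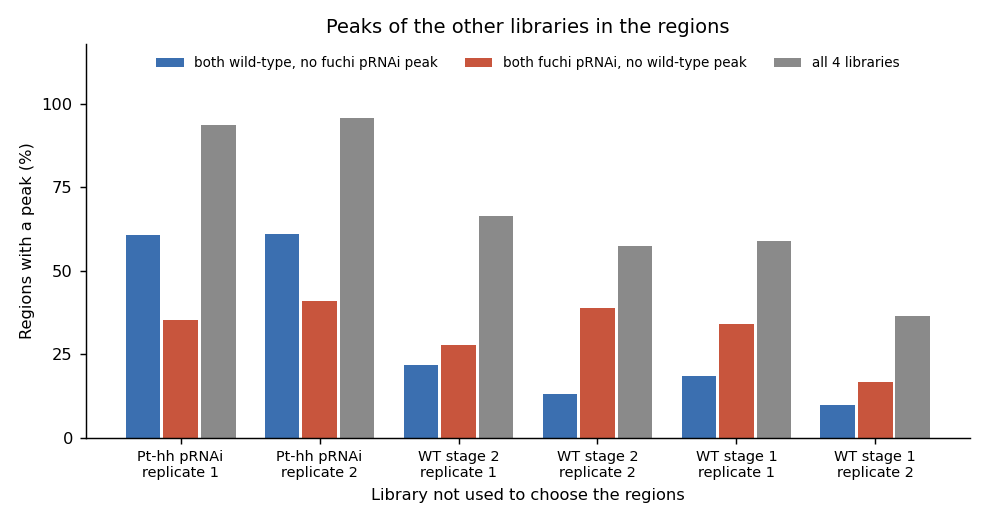
Bars give the percentage of regions (y axis) that had a peak in each of 6 libraries that were not used to choose them (x axis), each list shortened to 10616 peaks. Blue bars are the 734 regions of both wild-type libraries without a *fuchi* pRNAi peak, red bars the 735 regions of both *fuchi* pRNAi libraries without a wild-type peak, and grey bars the 4680 regions of all 4 libraries. Blue bars are above red bars in both *Pt-hh* pRNAi libraries (60.6% and 61.2% against 35.4% and 40.8%) and below them in the 4 libraries of stages 1 and 2. In the full *Pt-hh* pRNAi lists, which are not plotted, the shares were 89.6% and 83.4% against 84.5% and 81.9%. Those full lists covered 14445 and 13862 of all 18475 regions.

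The median region width was 624.5 bp for the lost regions and 464 bp for the gained regions, against 685 bp for the regions of all 4 libraries. The mixed pairs spanned a wider range, with 511.5 and 502 bp for wild-type replicates 1 and 2 with *fuchi* pRNAi replicate 1, and 636 and 765 bp for the same replicates with *fuchi* pRNAi replicate 2. All 3 pairs that contain *fuchi* pRNAi replicate 1 thus had the lowest medians. The shortened lists themselves had median peak widths of 567 and 540 bp in the wild-type replicates and of 451 and 526 bp in the *fuchi* pRNAi replicates, and the part of this list property in the widths was not tested. Lost regions had a median wild-type percentile of 36.7 and gained regions a median *fuchi* pRNAi percentile of 32.5, against 69.7 and 71.7 for the regions shared by all 4 libraries. The sets lay on 273 and 319 scaffolds. The nearest other region was 7263 bp away at the median for lost regions, 12783 bp for gained regions and 7340 bp for regions shared by all 4 libraries. On the 48 scaffolds with at least 30 regions of each group, the share of wild-type regions lost ranged from 0% to 22.7% with a median of 10.7%, and the highest share was on NW_018374158.1. The share of *fuchi* pRNAi regions gained ranged from 0% to 19.2% with a median of 9.38%, highest on NW_018370942.1.

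The strongest lost regions were named by rule: the 10 with the highest mean wild-type percentile among those without a peak in either full *fuchi* pRNAi list, called W1 to W10. All 10 therefore lack *fuchi* pRNAi values, and their wild-type values chose them. W1 (NW_018378148.1:878644-881203) had wild-type percentiles of 89.4 and 94.0, peaks 2560 and 2018 bp wide, and nothing in the *Pt-hh* pRNAi libraries even in the full lists. It thus was the only region of the 10 that both kinds of injected embryos lacked, and it had a stage-2 peak at a percentile of 91.1 in replicate 2 and none in replicate 1. W2 (NW_018379665.1:779786-781116) reached 86.3 and 90.5. It lies in the interval given for the gene LOC107451683 (g4218), annotated as a 60S ribosomal protein L7a-like, a component of the large ribosomal subunit. Only 163 gene intervals were at hand, from the study's own region annotation, and W2 alone of the 31 named regions matched one. Whether the other named regions lie in genes is thus unknown. W2 was part of a cluster. The next region 1519 bp away, at NW_018379665.1:782636-784045, had 72.4 and 82.4 in the wild type and no *fuchi* pRNAi peak. The region at NW_018379665.1:785668-788331 had 93.6 and 94.5 in the wild type, no peak in *fuchi* pRNAi replicate 1 and 5.55 in *fuchi* pRNAi replicate 2.

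W3 (NW_018373864.1:4572121-4573593) had wild-type percentiles of 91.4 and 83.9. W9 (NW_018373864.1:4324340-4326364), on the same scaffold, had 80.0 and 88.9. Flanking W9, the region at NW_018373864.1:4327987-4329754 had 77.7 and 65.8 in the wild type and 35.2 in *fuchi* pRNAi replicate 1, with no peak in replicate 2. W8 (NW_018373657.1:3560965-3562966) had 81.3 and 89.2 and led a run of 3 neighbouring lost regions within 5.31 kb. The second region of the run reached 63.2 and 76.5, and the third 58.8 and 44.0. No region between them was open after *fuchi* pRNAi, and 2 further lost regions lay within 10 kb on the other side, at NW_018373657.1:3549232-3550987 and NW_018373657.1:3552076-3553642. Around W8, then, 5 regions of both wild-type libraries had no peak in the shortened *fuchi* pRNAi lists.

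W4 (NW_018378926.1:3406068-3406877) had 89.6 and 84.9 in the wild type and 80.6 and 92.4 after *Pt-hh* pRNAi. W7 (NW_018368093.1:67745-68454) had 93.5 and 78.1 in the wild type and 87.8 and 88.4 after *Pt-hh* pRNAi. Its nearest neighbour, 5825 bp away at NW_018368093.1:74280-75341, had 77.5 and 14.7 in the wild type and likewise no peak in the shortened *fuchi* pRNAi lists. On the other side, the region 9626 bp away at NW_018368093.1:56534-58118 had percentiles of 99.0 and 97.7 in the wild type and 97.2 and 98.2 after *fuchi* pRNAi. W6 (NW_018380111.1:1323718-1324474) had 91.2 and 80.7 in the wild type and 73.3 and 81.9 after *Pt-hh* pRNAi. W5 (NW_018367643.1:370762-371723) had the widest spread, with 97.6 and 74.8 in the wild type and 67.8 and 9.81 after *Pt-hh* pRNAi. W10 (NW_018376213.1:6335495-6337559) had 82.4 and 80.0 in the wild type and 65.6 and 53.8 after *Pt-hh* pRNAi. In all, 8 of the 10 regions had a peak in both shortened *Pt-hh* pRNAi lists, and the wild-type percentiles of the 10 ran from 74.8 to 97.6.

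The 5 strongest gained regions, F1 to F5, were chosen in the same way from the *fuchi* pRNAi values. F1 (NW_018381107.1:927363-928518) had *fuchi* pRNAi percentiles of 89.4 and 92.3, no peak in *Pt-hh* pRNAi replicate 1 and 24.1 in replicate 2. F2 (NW_018380277.1:300584-302019) had 87.2 and 92.7, and it was open after *Pt-hh* pRNAi as well, with 82.5 and 78.6. F3 (NW_018381138.1:78304-81283) had 70.7 and 97.5, and 74.1 and 75.4 after *Pt-hh* pRNAi. F2 and F3 thus were open in all 4 libraries from injected mothers and in neither wild-type stage-3 library. F4 (NW_018377500.1:3271017-3271401) had 75.8 and 90.3 and was a narrow region, with peaks of 360 and 375 bp. It had stage-1 percentiles of 96.5 and 96.0. F5 (NW_018371426.1:434722-436324) had 87.6 and 71.9 after *fuchi* pRNAi and was strong in all 4 earlier libraries, with 83.3 and 96.0 at stage 2 and 97.9 and 87.6 at stage 1. The other 3 had earlier wild-type peaks as well, F1 at 67.6 and F2 at 76.4 in stage-1 replicate 1, F2 at 3.52 and F3 at 83.8 in stage-2 replicate 2. In *Pt-hh* pRNAi replicate 1, F4 and F5 had 20.0 and 14.5, and the shortened list of replicate 2 had no peak there.

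**Figure D3:**
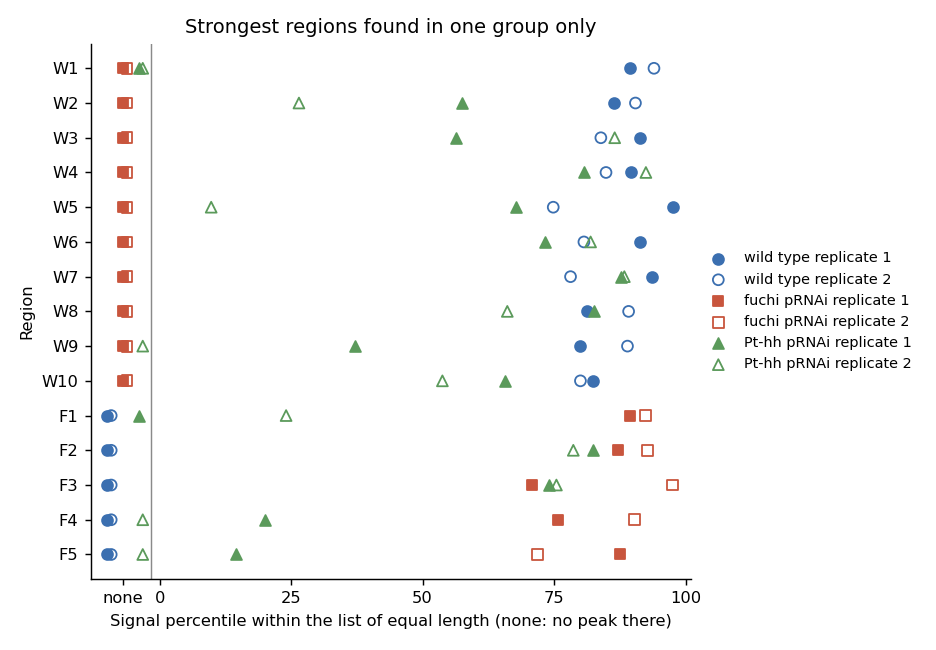
The signal percentile (x axis) of the 10 strongest lost regions (W1 to W10) and the 5 strongest gained regions (F1 to F5) is shown for each stage-3 library, and marks left of the vertical line stand for no peak in the shortened list. Filled marks are replicate 1 and open marks replicate 2. Wild-type values of W1 to W10 lie between 74.8 and 97.6 and *fuchi* pRNAi values of F1 to F5 between 70.7 and 97.5, and 8 of the 10 W regions have a *Pt-hh* pRNAi peak in both replicates.

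Runs of 3 or more neighbouring regions of the same kind were few. There were 3 runs of lost regions and 4 of gained regions. The longest was a run of 5 gained regions over 42.0 kb at NW_018384097.1:1226878-1268893, with percentiles from 23.7 to 77.9 in *fuchi* pRNAi replicate 1 and from 15.0 to 54.9 in replicate 2. All 5 had a weaker peak in the full list of wild-type replicate 1 and none in that of replicate 2. The compact run of 3 gained regions at NW_018378148.1:582158-588893 had no peak in either full wild-type list, and its middle region had 80.9 and 77.8 after *fuchi* pRNAi. That scaffold also carries W1.

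The 4680 regions of all 4 libraries were compared by rank. Ranks of the same regions differed between replicates as much as between groups. The median absolute difference was 11.9 percentile points between the wild-type replicates and 9.36 between the *fuchi* pRNAi replicates, and it ranged from 8.45 to 13.5 over the 4 pairs of libraries of different groups. The most alike pair of the 6 was wild-type replicate 2 with *fuchi* pRNAi replicate 2 (Spearman's rho of 0.75 across regions), ahead of the *fuchi* pRNAi replicates (0.69) and the wild-type replicates (0.65). These are correlations across regions within pairs of libraries, and regions are not replicates. The least alike pair was wild-type replicate 1 with *fuchi* pRNAi replicate 1 (0.52).

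**Figure D4:**
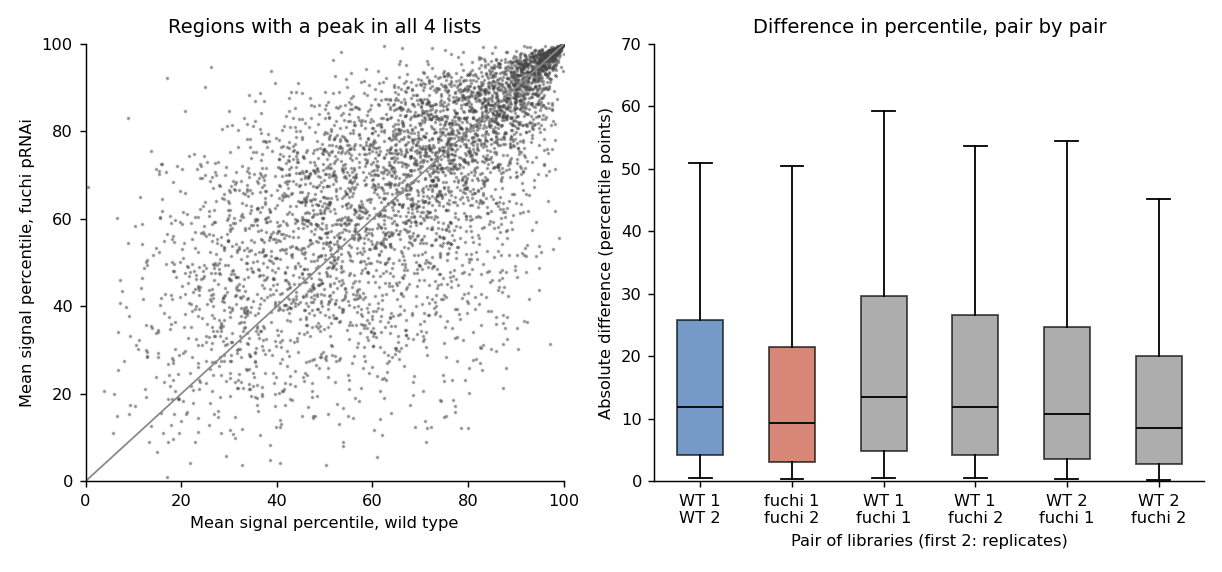
Left, the mean signal percentile after *fuchi* pRNAi (y axis) against that in the wild type (x axis) for the 4680 regions with a peak in all 4 lists, with a line of equality. Right, absolute differences in percentile for each pair of libraries, with boxes from the lower to the upper quartile, a line at the median and whiskers from the 5th to the 95th percentile. The replicate medians of 11.9 (blue) and 9.36 (red) lie within the range of 8.45 to 13.5 of the pairs between groups (grey).

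No region passed the test of a rank difference. limma on normal scores of the ranks, with Benjamini-Hochberg adjustment over the 4680 regions, called 0 regions lower (0%) and 0 higher (0%) at an adjusted p below 0.05, and the smallest adjusted p was 0.705. At an unadjusted p below 0.05 there were 145 lower (3.10%) and 138 higher (2.95%) regions. In 724 regions (15.5%) both *fuchi* pRNAi percentiles were below both wild-type percentiles, and in 1053 (22.5%) both were above. The median difference of *fuchi* pRNAi minus wild type was 1.05 percentile points, and the middle part of the regions, from the lower to the upper quartile, lay between -6.72 and 11.9. The median standard error of a difference was 0.43 on the normal score scale, which sets how large a difference would have to be for a single region to pass with 2 libraries a group.

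The largest separations are given as values only. Of the regions in which both *fuchi* pRNAi ranks lay below both wild-type ranks, the 5 with the largest difference in normal score are named L1 to L5. L2 (NW_018370170.1:3666772-3668688) was the most even of them, with percentiles of 97.7 and 96.3 in the wild type and 32.4 and 30.5 after *fuchi* pRNAi, and its strongest peaks were 1891 and 1792 bp wide against 535 and 805 bp, with 3 peaks in *fuchi* pRNAi replicate 1. Its difference was -2.38 ± 0.34 in normal score (SE, n = 2 a group; limma adjusted p = 0.705). L1 (NW_018374918.1:478179-480955) had 68.3 and 97.5 in the wild type, 0.089 and 51.0 after *fuchi* pRNAi and 98.3 in both *Pt-hh* pRNAi libraries. L3 (NW_018373110.1:1481980-1482435) had 74.7 and 76.0 against 0.25 and 29.6. L4 (NW_018371332.1:423083-424132) had 93.2 and 82.8 against 1.71 and 50.1. L5 (NW_018380513.1:94825-95233) had 81.7 and 60.7 against 16.7 and 1.27. All 5 had a peak in both *Pt-hh* pRNAi libraries, where the percentiles ran from 52.8 to 98.3. Such peaks were the rule, as 4272 of the 4680 shared regions (91.3%) had them.

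H1 to H5 are the counterparts with higher ranks after *fuchi* pRNAi. H5 (NW_018378104.1:1076964-1077765) had 23.2 and 10.8 in the wild type and 93.7 and 90.6 after *fuchi* pRNAi, the widest gap in percentile points of the 4680 regions (75.1). Its difference was 2.41 ± 0.44 in normal score (SE, n = 2 a group; limma adjusted p = 0.760). H4 (NW_018379581.1:123275-124119) had 4.87 and 12.8 against 92.4 and 73.9, with peaks of 379 and 321 bp against 831 and 810 bp. It also stood at 86.5 and 96.5 at stage 2 and at 93.2 and 92.8 at stage 1. H1 (NW_018367866.1:885446-886006) had 0.52 and 0.61 against 68.2 and 66.5, H2 (NW_018379622.1:3869922-3870781) had 4.01 and 48.4 against 93.6 and 95.9, and H3 (NW_018370220.1:1083144-1083665) had 0.061 and 71.0 against 88.1 and 85.6. In H2 and H3 the wild-type replicates were farther apart than the *fuchi* pRNAi replicates.

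Widths of the shared regions were compared in the same way. The median width of the strongest peak was 609 and 540.5 bp in the wild-type replicates and 520 and 561 bp in the *fuchi* pRNAi replicates, so that the groups overlapped. limma on log2 widths called 0 regions narrower (0%) and 0 wider (0%) after *fuchi* pRNAi, with a smallest adjusted p of 0.115. At an unadjusted p below 0.05 there were 242 narrower (5.17%) and 66 wider (1.41%) regions. With each library centred on its own median width the numbers were 163 and 100, after a shift of the median difference from -0.05 to 0.04 on the log2 scale. Both *fuchi* pRNAi widths were below both wild-type widths in 1078 regions (23.0%) and above them in 473 (10.1%).

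The largest width differences, which did not pass the test, are given as values. N1 (NW_018376543.1:63578-64669) had percentiles of 96.6 and 92.1 in the wild type and 91.5 and 87.0 after *fuchi* pRNAi, whereas its strongest peak was 1092 and 719 bp wide in the wild type and 194 and 192 bp after *fuchi* pRNAi. In *fuchi* pRNAi replicate 1 the region held 2 peaks, which covered 551 bp. Its log2 width differed by -2.20 ± 0.25 (SE, n = 2 a group; limma adjusted p = 0.287). N3 (NW_018382784.1:2614832-2616897) stood between 98.2 and 99.1 in all 4 libraries, with widths of 1461 and 2066 bp against 474 and 471 bp. N2 (NW_018371535.1:8792681-8793996) went from 1254 and 1289 bp to 327 and 347 bp. Both *fuchi* pRNAi libraries split N2 into 2 peaks, which covered 896 and 1203 bp in all. In the other direction, B1 (NW_018376033.1:1988-3231) went from 364 and 372 bp to 1227 and 1051 bp, and its percentiles from 41.9 and 73.5 to 94.2 and 88.6. B2 (NW_018376945.1:24784-26632) went from 623 and 697 bp to 1849 and 1787 bp. B3 (NW_018372857.1:3108-7746) had a strongest peak of 1173 and 1446 bp in the wild type and of 2482 and 4589 bp after *fuchi* pRNAi. Wild-type replicate 2, however, split B3 into 4 peaks that covered 4108 bp in all, more than the 3704 bp covered by the 3 peaks of *fuchi* pRNAi replicate 1. Wild-type replicate 1 split B2 into 2 peaks and wild-type replicate 2 into 3, which covered 1126 and 1483 bp. Peak tops hardly moved. The distance between the summits of a shared region was 26 bp at the median between the wild-type replicates, 30 bp between the *fuchi* pRNAi replicates and 24 to 31 bp between libraries of different groups.

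The last view was by gene. The study listed regions that differed in accessibility after *fuchi* pRNAi, most of them less accessible. In that list it marks genes whose transcripts it also found altered after *fuchi* pRNAi, at stage 3 or at stage 5. Of these, 20 genes could be placed, with 10 kb on either side, from entries whose peak centre lay inside their own peak, and 19 of the 20 were in the RefSeq gene table at hand. The study's top-ranked stage-3 gene, g1125, which it shows as an example beside Pt-hh and Pt-GATA5, was not among the 20. The genes had been picked with these same libraries, so that losses at them are a description and not independent evidence. They held 94 of the 18475 regions. Both wild-type replicates had a peak in 50 of them. Of the 50, 16 (32.0%) had no peak in either shortened *fuchi* pRNAi list, against 10.9% of all wild-type regions. At least 1 such loss was found in 14 of the 20 genes. In the full *fuchi* pRNAi lists, 12 of the 50 had no peak, against 8.50% of all wild-type regions. Of 29 regions found in both replicates of *fuchi* pRNAi, 2 (6.90%) had no peak in either shortened wild-type list, against 10.6% of all. Both *Pt-hh* pRNAi libraries had a peak in 13 of the 16 lost regions. The share was 45.5% of all lost regions and 80.7% of all regions of both wild-type libraries. Of the 25 regions of these loci with a peak in all 4 libraries, 14 (56.0%) had both *fuchi* pRNAi percentiles below both wild-type ones, against 15.5% of all shared regions, and 3 (12.0%) had both above, against 22.5%. The median difference was -5.28 percentile points, against 1.05 over all shared regions, and no adjusted p was below 0.05.

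Pt-hh (g4322, LOC107451809) encodes Hedgehog, a secreted ligand that patterns the spider germ disc. Its locus on NW_018380730.1 held 8 regions of both wild-type libraries, of which 7 stayed open in both *fuchi* pRNAi libraries. The lost region at NW_018380730.1:127189-127627, beside the gene, was weak, with wild-type percentiles of 24.3 and 25.4 and no peak in either full *fuchi* pRNAi list. The neighbouring region at NW_018380730.1:124781-125203 had 77.2 and 83.1 in the wild type and 46.6 and 55.0 after *fuchi* pRNAi, and the region in the gene at NW_018380730.1:69410-70081 had 93.7 and 89.8 against 77.8 and 71.4 (limma adjusted p = 0.760 for both). The groups did not overlap in either. The other 5 had mean percentiles from 83.6 to 92.6 in the wild type and from 80.5 to 92.5 after *fuchi* pRNAi, as at NW_018380730.1:87143-87653, with 93.4 and 91.7 against 93.1 and 91.9.

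Pt-GATA5 (g8337, LOC107456131) encodes a canonical GATA transcription factor. Its locus on NW_018368052.1 held 1 region of both wild-type libraries, at NW_018368052.1:1355574-1356076, with percentiles of 71.7 and 79.3 in the wild type, 17.0 and 56.5 after *fuchi* pRNAi and 86.2 and 81.9 after *Pt-hh* pRNAi. In the same locus 2 regions had *fuchi* pRNAi peaks and no wild-type peak in the shortened lists. NW_018368052.1:1354108-1354469 had 25.5 and 64.8, and NW_018368052.1:1377732-1378225 had 49.0 and 24.0. Both were open in the *Pt-hh* pRNAi libraries and had a weaker peak in the full list of wild-type replicate 1. The *ush*-like gene (g14866), whose *Drosophila* namesake *u-shaped* encodes a zinc finger cofactor of GATA factors, held a region at NW_018369952.1:430567-431528 with 98.0 and 93.7 in the wild type and 63.7 and 81.3 after *fuchi* pRNAi. It had 97.3 and 97.1 after *Pt-hh* pRNAi, and the difference between *fuchi* pRNAi and the wild type was -1.17 ± 0.32 in normal score (SE, n = 2 a group; limma adjusted p = 0.760).

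The clearest losses at named genes were single regions. The uncharacterized gene g20850 (LOC107449642) held a region at NW_018378778.1:319430-320871 with wild-type percentiles of 89.1 and 65.5, no peak in either full *fuchi* pRNAi list, and 83.3 and 95.4 after *Pt-hh* pRNAi. The gene for a calcium-activated chloride channel regulator 2 (g11056) held a region at NW_018375680.1:2728747-2729484 with 76.7 and 83.3, likewise without a *fuchi* pRNAi peak and with 79.8 and 73.2 after *Pt-hh* pRNAi. The gene for an elongation of very long chain fatty acids protein 7 (g9046), an enzyme type that lengthens fatty acid chains, held a region at NW_018382156.1:8173196-8173789 with 85.5 and 71.4, no peak in either full *fuchi* pRNAi list, and 48.8 and 37.0 after *Pt-hh* pRNAi. The uncharacterized gene g4846 kept a peak in all 4 libraries, with 94.4 and 95.2 in the wild type, 38.7 and 48.9 after *fuchi* pRNAi and 94.1 and 97.4 after *Pt-hh* pRNAi at NW_018382128.1:520575-522048. The gene for a C-1-tetrahydrofolate synthase (g18227), of one-carbon metabolism, showed replicates that disagreed. Its region had 28.6 and 94.9 in the wild type, a weaker peak in the full list of *fuchi* pRNAi replicate 2, and none in either shortened *Pt-hh* pRNAi list.

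Genes of signalling and regulation were mixed. The Wnt-16-like gene (g11009), for a secreted ligand, held a region at NW_018377318.1:1553024-1553647 with 73.3 and 85.2 in the wild type and 2.34 and 44.0 after *fuchi* pRNAi, whereas its strongest region at NW_018377318.1:1660583-1661435 had 98.6 and 97.2 against 97.1 and 95.5. The *tiptop*-like gene (g25516), whose *Drosophila* namesake encodes a zinc finger transcription factor, spanned the most regions, with 18 of both wild-type libraries, of which 11 were open in both *fuchi* pRNAi libraries, 4 in 1 and 3 in neither. The 3 losses had mean wild-type percentiles from 39.3 to 54.9, and 2 of them had a weaker peak in the full list of *fuchi* pRNAi replicate 2. The *scabrous*-like gene (g943), the speckle-type POZ protein A-like gene (g1962), the alkaline phosphatase-like gene (g13296), the buccalin gene (g11206) and the bcl-2-related ovarian killer homolog A gene (g8058), a relative of regulators of cell death, held 1 lost region each. Their mean wild-type percentiles ran from 28.2 to 58.9. The uncharacterized genes g18441, g18851 and g24979 also held 1 each. The myosin-9-like gene (g10399) kept a peak in 1 *fuchi* pRNAi library, and the gene for a vascular non-inflammatory molecule 3-like protein (g18745) had no region of both wild-type libraries.

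**Figure D5:**
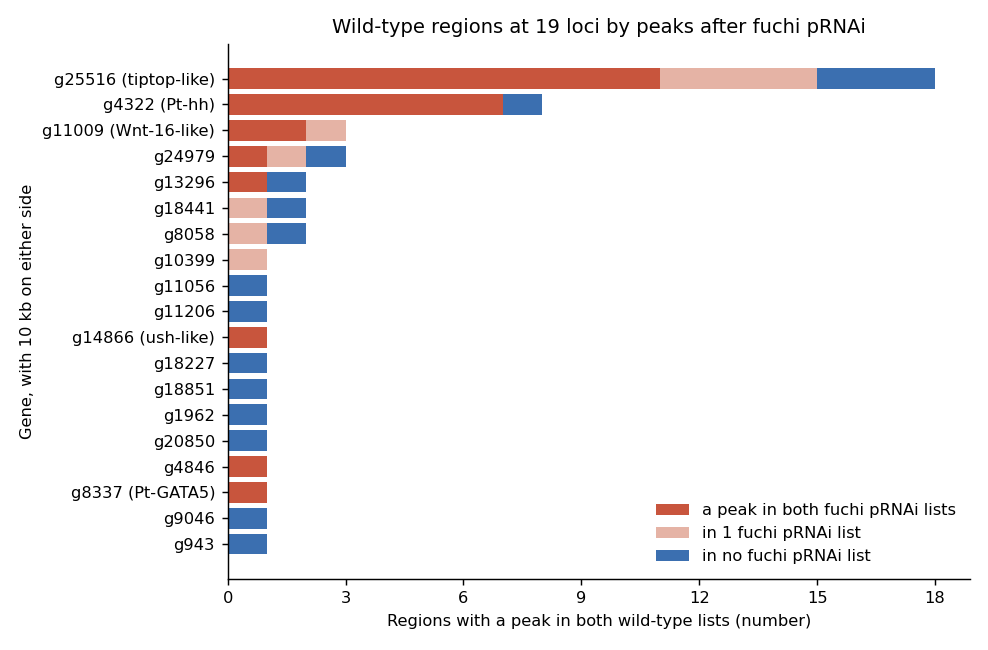
Bars count regions shared by the wild-type lists (x axis) at each of the 19 genes that had any, with 10 kb on either side (y axis), divided by their peaks after *fuchi* pRNAi. Of the 50 regions, 25 were found in both shortened *fuchi* pRNAi lists (red), 9 in 1 (pale) and 16 in neither (blue).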

How the data were processed

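Nuclei of whole *P. tepidariorum* embryos were profiled by ATAC-seq, and the 4 stage-3 libraries compared here were 2 of untreated wild type and 2 of *fuchi* pRNAi. The authors trimmed reads with Trim Galore, aligned them to Ptep_2.0 with Bowtie2 2.2.5, removed duplicates with Picard and called peaks for each library on its own with Genrich 0.6 (versions per the submitters' processing notes), so that replicates were not pooled and no control library was used. The deposited lists give for each peak its signal (the area of significance along the peak, 200 or more), a score that is the signal per base and the −log10 of the p-value at the summit. These values come without read counts, so depth is unknown and a count test could not be run. A list loses weak peaks when a library is shallow.

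Each list was shortened to 10616 peaks by signal, peaks overlapping by 1 bp were merged, and regions were compared by presence, by percentile within the list (the strongest peak of a library in a region) and by the width of that peak. Regions with a peak in all 4 lists were tested with limma 3.58.1 in R 4.3.3, with a variance trend, on normal scores of the percentile and on log2 widths, at a Benjamini-Hochberg adjusted p of 0.05. Python 3.11.15, pandas 2.3.3, numpy 2.4.6, scipy 1.17.1 and matplotlib 3.10.9 served for the rest, and the test was tried on simulated data. Groups came from the sample labels. Presence counts are descriptions, with replicate disagreement as their background.

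The regions named were the 10 strongest wild-type regions without a peak in either full *fuchi* pRNAi list, the 5 strongest in the reverse direction, and, as no shared region passed the test, the 5 largest rank differences and 3 largest width differences each way among regions whose groups did not overlap. Loci were genes that the study noted as altered in RNA-seq and near regions it found differentially accessible in these libraries. They were placed by its own region annotation. Of 30 such entries, 8 whose coordinates were out of step were left out. The members and lists were chosen with earlier results of these data known. Alternatives covered list length, ranking by p-value, the overlap rule, summit windows, the model, a replicate block and leaving out each library. Region sequences were not analysed here. The RefSeq gene table (CAS_Ptep_4.0) served for gene names only.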

Additional observations from a re-analysis of the deposited data

How the results depend on the processing

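Of 78 values recomputed under other settings, 63 kept their place and 15 moved. Most moves were in the counts of lost and gained regions. Of 10 alternatives for each, 6 moved the lost count and 7 the gained count. The other recomputed values were limma counts, which were 0 in the main setting and mostly stayed at 0. The 734 lost regions became 1407 with all deposited peaks and 410 with lists of 5308 peaks. The 735 gained regions became 400 with all deposited peaks, 340 with lists of 5308 peaks, and 270 when absence was judged in the full lists, an alternative chosen after seeing the data. Leaving out each library in turn gave 1186 to 2651 and 1445 to 2799 regions, since a single library then stands for a group. Without wild-type replicate 1, which leaves line 40 alone, they were 2608 and 1445. Ranking by p-value, overlap of 50% and windows of 200 bp around summits left both counts within 1.5 times.

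The number of shared regions ranked lower ranged from 0 to 5 over the libraries left out and was 0 under every other setting. It was 0 without either wild-type replicate, 4 without *fuchi* pRNAi replicate 1 and 5 without *fuchi* pRNAi replicate 2, with the lone library assumed to vary as the wild type does. These regions were named after their values were seen. Without replicate 1 they were L2, the neighbour of W2 at NW_018379665.1:785668-788331, NW_018374349.1:6500-9304 and NW_018377277.1:1-5263. The left-out replicate 1 had 32.4 in L2 and no peak in the neighbour of W2. At NW_018374349.1:6500-9304 it had 99.995, as did both wild-type replicates, against 99.986 in replicate 2. At NW_018377277.1:1-5263 it had 99.90, against 99.98 and 99.96 in the wild type and 95.4 in replicate 2. Without replicate 2 the regions were NW_018370506.1:9227810-9233555, NW_018376604.1:671731-674151, NW_018378319.1:1085089-1088022, NW_018378439.1:745653-749189 and NW_018383953.1:40729-42074. Of the latter 5, the left-out replicate 2 had percentiles of 99.4, 99.1, 88.2 and 91.5 in the first 4 and no peak in the last. Regions ranked higher, narrower or wider numbered 0 under all settings run. Over the settings with all 4 libraries, the smallest adjusted p of limma lay between 0.17 and 0.773 for rank and between 0.066 and 0.897 for width. With all deposited peaks, 279 regions were lower and 63 higher in rank at an unadjusted p below 0.05, against 145 and 138.

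Among the 4680 shared regions, deviations of equal replicate numbers correlated at 0.043 for rank and -0.028 for width. In presence, mixed pairs of equal number held 682 and 649 regions, against 479 and 368 for unequal numbers. Whether equal numbers mark a pairing of the libraries was not tested. With a replicate block, 0 regions were called in rank or width, and 166 were lower and 143 higher in rank at an unadjusted p below 0.05. Read depth is unknown for every library, and it limits what an absent peak can show.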

Other observations

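In libraries outside the comparison, 32 of the 734 lost regions and 47 of the 735 gained regions lacked a peak in the full lists of both *Pt-hh* pRNAi replicates. Over all regions it was 2606 of 18475, a larger share than in either set. Among the 2 mixed pairs that contain wild-type replicate 2, the share of regions without a peak in either shortened *Pt-hh* pRNAi list was 54.9% with *fuchi* pRNAi replicate 1 and 52.2% with *fuchi* pRNAi replicate 2, against 23.7% where the wild-type replicates made the pair and 43.0% where the *fuchi* pRNAi replicates did. The 2 mixed pairs that contain wild-type replicate 1 had 34.9% and 23.4%. Over all 18475 regions the share was 37.8%. The reason for the order was not tested.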
